A study of Homo sapiens with 8 samples.

Results

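SLC2A1, SLC2A3, SLC2A14, HK1 and HK2 code for proteins of the first steps of glucose use, its entry into the cell and its phosphorylation. HIF-1β binding was examined around these 5 of 19821 protein-coding genes, by taking every ChIP-seq peak that overlapped the gene body extended by 50 kb on each side (GRCh37, hg19). HIF-1β is the constant partner that HIF-α subunits need to bind DNA, and it was immunoprecipitated from 4 human cancer cell lines that had all been kept at 0.5% oxygen for 16 h, with no other treatment in the labels. The lines were PC3 (prostate cancer), T47D (breast cancer), A549 (lung cancer) and HCT-116 (colorectal cancer), with 2 replicates of each. Each line stands for its tissue by 1 established line only, its identity was taken from the labels because peak lists hold no expression values, and no library of normoxic cells or of control DNA was analysed here. The lists held 1042 and 2891 peaks in PC3 replicates 1 and 2, 3061 and 2910 in T47D replicates 1 and 2, 1768 and 1270 in A549 replicates 2 and 3, and 3790 and 1913 in HCT-116 replicates 2 and 3. Of these 18645 peaks, 64 lay in the windows of the 5 genes, between 6 and 12 per library. How deeply each library was sequenced is unknown, as peak lists carry no reads. Nothing in the sources says that replicates were separate cultures, so p-values measure the spread between these libraries, which may be technical.

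Glucose crosses the plasma membrane through facilitative transporters of the SLC2A (GLUT) family and is then trapped in the cell as glucose-6-phosphate by hexokinases. SLC2A1 (GLUT1) is the widespread basal transporter, SLC2A3 (GLUT3) is a high-affinity transporter best known from neurons, and SLC2A14 (GLUT14) is a close relative that lies beside SLC2A3 on chromosome 12 and arose from it by duplication. HK1 is the housekeeping hexokinase, and HK2 is the isoform of insulin-sensitive tissues that is raised in many tumours. SLC2A1, SLC2A3, HK1 and HK2 are long-known targets of HIF, the transcription factor that accumulates at low oxygen and binds a short core motif, ACGTG or GCGTG, on either strand of DNA.

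Peaks of all libraries with an overlap of 1 bp or more were joined into regions, and a region with overlapping peaks of both replicates of a line was counted as a site of that line. Each library ranks its peaks by a score, with rank 1 the highest. The windows held 18 regions, 10 of them with a site in at least 1 line. In 4 of the 10 the site was present in all 4 lines, in 2 it was present in 3 lines, in 1 in 2 lines, and in 3 in a single line. The sequences below carry the results. Each is 300 bp of the GRCh37 reference, plus strand, around the middle of the stretch that the peaks of all libraries present shared, in lower case with core motifs on either strand in capitals. The first is the site with the highest ranks among those shared by all lines, the next 3 are the promoter sites of SLC2A1, HK1 and HK2, and the last is a far upstream site of SLC2A1 that was present in HCT-116 cells alone.
SLC2A3 upstream site, chr12:8123292-8123591: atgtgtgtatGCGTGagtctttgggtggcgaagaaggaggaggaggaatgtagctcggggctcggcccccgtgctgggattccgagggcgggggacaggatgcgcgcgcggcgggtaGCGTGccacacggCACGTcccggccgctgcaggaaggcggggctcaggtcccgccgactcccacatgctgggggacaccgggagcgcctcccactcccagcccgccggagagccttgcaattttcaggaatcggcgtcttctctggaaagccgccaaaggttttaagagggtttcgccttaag
SLC2A1 promoter site, chr1:43423898-43424197: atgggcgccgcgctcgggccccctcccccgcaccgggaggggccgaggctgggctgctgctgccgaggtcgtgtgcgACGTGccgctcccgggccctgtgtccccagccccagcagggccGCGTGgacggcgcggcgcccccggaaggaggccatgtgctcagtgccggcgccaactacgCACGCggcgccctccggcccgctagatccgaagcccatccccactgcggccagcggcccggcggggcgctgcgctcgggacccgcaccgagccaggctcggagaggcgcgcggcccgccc
HK1 promoter site, chr10:71078153-71078452: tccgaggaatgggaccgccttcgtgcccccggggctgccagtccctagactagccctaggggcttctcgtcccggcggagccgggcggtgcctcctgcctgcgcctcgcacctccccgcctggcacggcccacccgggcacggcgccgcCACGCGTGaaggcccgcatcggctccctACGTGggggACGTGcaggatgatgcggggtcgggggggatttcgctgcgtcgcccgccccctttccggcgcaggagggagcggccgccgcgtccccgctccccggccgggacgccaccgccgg
HK2 promoter site, chr2:75060757-75061056: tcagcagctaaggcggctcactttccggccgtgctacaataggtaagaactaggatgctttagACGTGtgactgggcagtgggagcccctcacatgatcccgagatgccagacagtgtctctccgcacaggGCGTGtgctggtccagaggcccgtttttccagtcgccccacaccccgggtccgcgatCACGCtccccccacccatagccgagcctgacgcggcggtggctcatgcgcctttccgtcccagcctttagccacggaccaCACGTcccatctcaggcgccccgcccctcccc
SLC2A1 far upstream site, chr1:43473764-43474063: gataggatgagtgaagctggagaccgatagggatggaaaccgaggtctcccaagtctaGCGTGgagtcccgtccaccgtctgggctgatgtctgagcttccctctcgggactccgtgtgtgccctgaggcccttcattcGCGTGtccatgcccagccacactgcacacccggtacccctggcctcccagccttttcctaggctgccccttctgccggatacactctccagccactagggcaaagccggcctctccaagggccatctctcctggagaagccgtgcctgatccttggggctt

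In PC3 cells 4 of the 5 genes had a site in the 50 kb window (10.1% of all protein-coding genes had one). In T47D cells it was 4 genes (21.9%), 3 genes for A549 (8.63%), and 4 genes for HCT-116 (19.6%). SLC2A1, SLC2A3 and HK2 had a site in all 4 lines, which 3.71% of all genes had. A region with a peak in all 8 libraries was present for the same 3 genes (3.25%). HK1 had a site in every line but A549, and SLC2A14 had none in any line. Within 2 kb of a transcription start, a site was present at SLC2A1, HK1 and HK2 in PC3 cells (2.36% of all genes), T47D cells (7.41%) and HCT-116 cells (6.48%), and at SLC2A1 and HK2 in A549 cells (1.87%). The 5 genes were chosen with results of these data known, so these counts are a description and were not tested against the other genes.

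**Figure D1:**
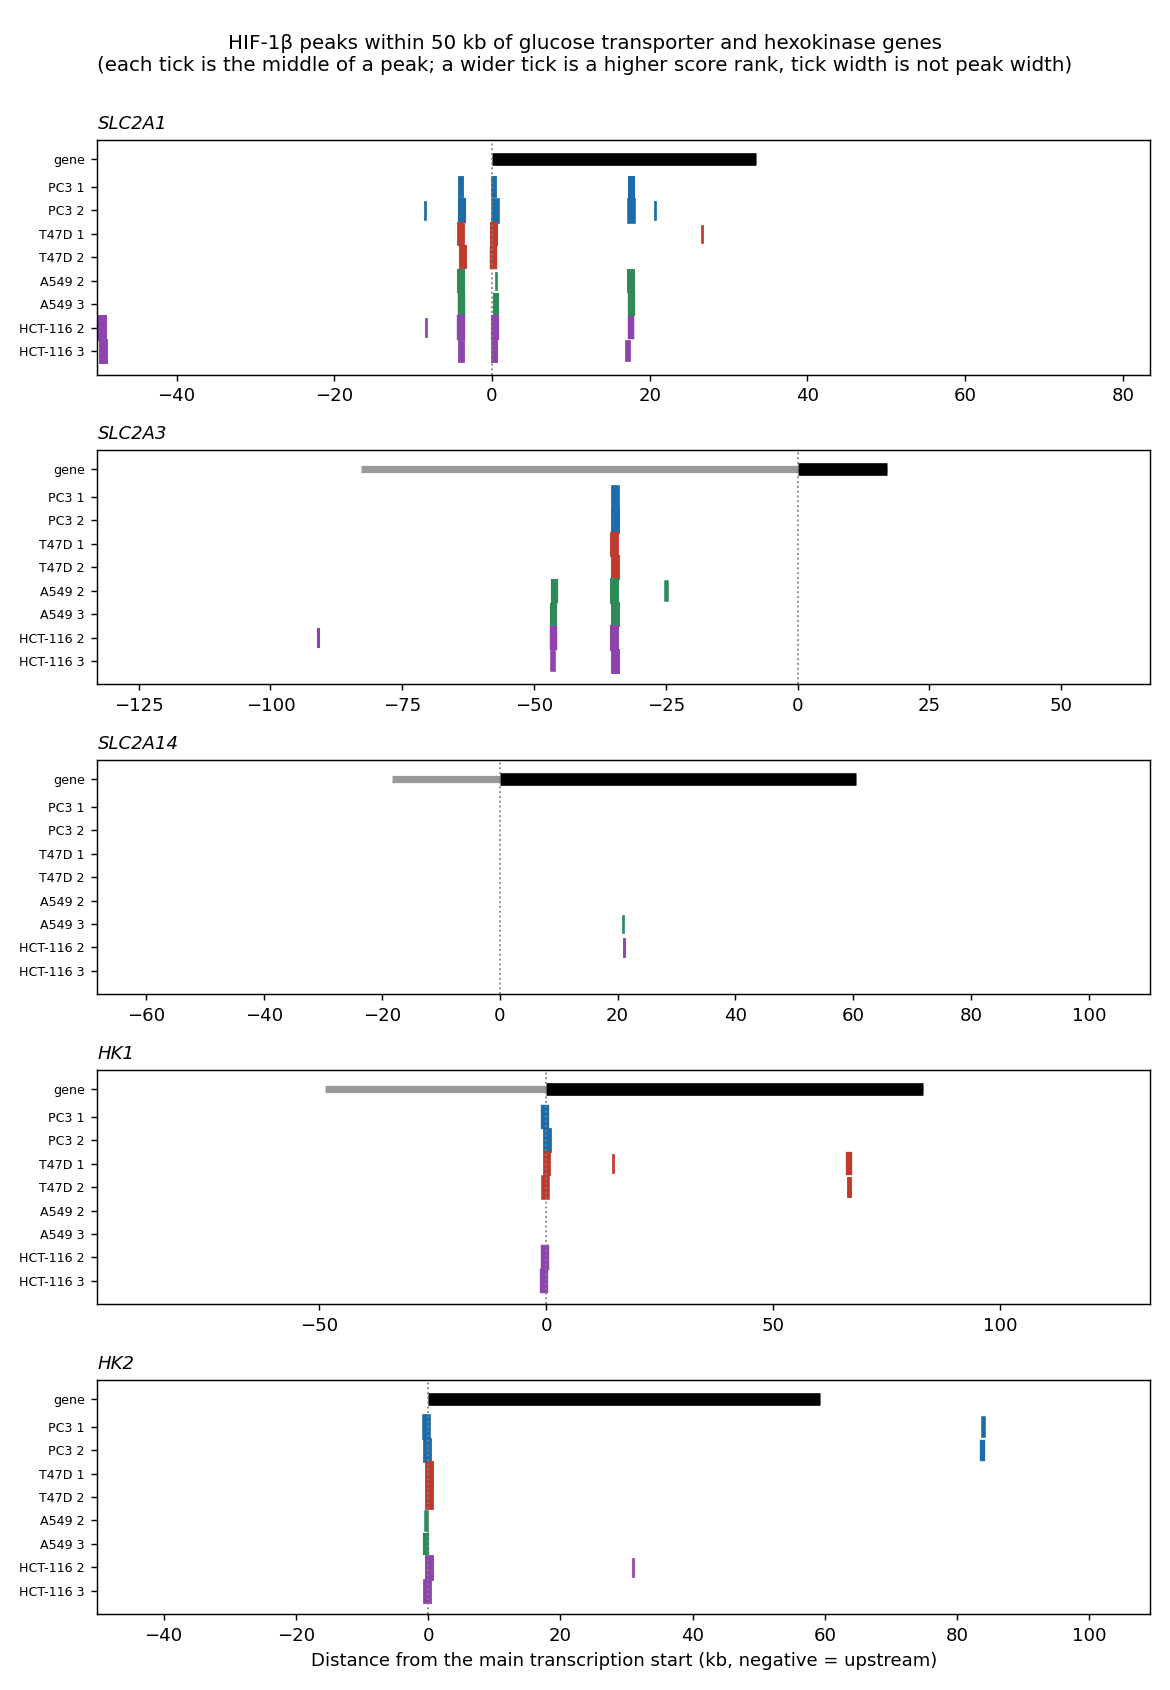
Position of every peak (ticks, at the peak's middle) in the windows of the 5 genes, as distance in kb from the main transcription start with negative values upstream, 1 row per library and 1 colour per line. The black bar is the main transcript, the grey bar the rest of the annotated gene, and a wider tick marks a higher score rank. SLC2A1, HK1 and HK2 have peaks at the start, whereas the peaks of SLC2A3 stand about 35 kb and more upstream, apart from 1 peak of A549 replicate 2 about 25 kb upstream.

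In 7 of the 8 libraries the highest-ranked peak in the windows was that of a SLC2A3 region far from the main start, and in HCT-116 replicate 2 it came at rank 17 after the SLC2A1 far upstream peak at rank 15. This region (chr12:8122578-8124349) had a peak in all 8 libraries, and its midpoint lay 34680 bp upstream of the start of the main transcript. The annotated gene body also covers it, because a single longer transcript begins further upstream, and it lies within the lncRNA gene ENSG00000288043 on the opposite strand. Its peak had rank 34 of 1042 in PC3 replicate 1 and 28 of 2891 in replicate 2. In T47D cells the ranks were 51 of 3061 and 34 of 2910. In A549 cells they were 9 of 1768 and 3 of 1270. In HCT-116 cells they were 17 of 3790 and 13 of 1913. The peak of A549 replicate 3 stood closest to the top of its list of all peaks in the windows, at 0.236%. All 8 peaks therefore stood in the top 5% of their list, between 0.236% and 3.26% from the top. The scores themselves were 705 and 1695 in PC3 cells, 954 and 1420 in T47D cells, 2245 and 1917 in A549 cells, and 2812 and 1930 in HCT-116 cells, and they are compared here only through ranks because the libraries have no common scale.

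No library had a peak at the main promoter of SLC2A3. The nearest peak was 24474 bp from the main start in A549 replicate 2, a single peak of score 93.78 that replicate 3 lacked, and in the other 7 libraries the nearest peak was that of the shared upstream region, 33795 to 34159 bp away. Another region, with its midpoint 46381 bp upstream (chr12:8134505-8135824), was a site in A549 and HCT-116 cells. Its scores were 227 and 191 in A549 replicates 2 and 3, and 237 and 118 in HCT-116 replicates 2 and 3, and its ranks ran from 276.5 to 727. PC3 and T47D cells had no peak there in either replicate, a difference that was not tested. A peak of HCT-116 replicate 2 near the start of FOXJ2 completed the window.

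SLC2A14 had no site, and only 2 libraries had a peak in its window. A549 replicate 3 had a peak of score 62.25 (rank 983 of 1270) and HCT-116 replicate 2 one of score 73.04 (rank 2566 of 3790), at the same place in intron 2 (chr12:8003906-8005045), and the other replicate of each line lacked it. These are low ranks, in the lower part of both lists. The sequence of this region is a copy of the SLC2A3 region 46381 bp upstream, with 94.1% identity over 1094 bp, and the lines in which a peak was called here are those with a site there. How reads were divided between the copies cannot be seen in peak lists and was not tested. The small peaks of SLC2A14 are therefore reported as uncertain, and the same limit holds for the SLC2A3 region 46381 bp upstream. The longest stretch that is identical in both copies is 137 bp long and holds 3 core motifs, shown in capitals.
SLC2A3 side, chr12:8135085-8135221, and SLC2A14 side, chr12:8004418-8004554: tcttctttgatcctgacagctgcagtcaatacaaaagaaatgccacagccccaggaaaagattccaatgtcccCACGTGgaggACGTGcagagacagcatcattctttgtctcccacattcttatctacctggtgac

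The gene bodies of SLC2A14 and SLC2A3 are 28081 bp apart and their windows share 71919 bp. The strong shared SLC2A3 region lay outside the window of SLC2A14, 78834 bp from its gene body. With windows of 100 kb it would be counted for SLC2A14 too, in all 4 lines.

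SLC2A1 had the most regions, 7 in its window, 4 of them with a site. The promoter region (chr1:43423188-43425197) had a peak in all 8 libraries, with its midpoint 347 bp inside the gene, in intron 1. The region also covered the start of the lncRNA gene SLC2A1-DT on the opposite strand. It had score 122 and rank 367 in PC3 replicate 1, and score 617 and rank 125 in PC3 replicate 2. In T47D cells the scores were 253 and 196 (ranks 335 and 520), and in HCT-116 cells 399 and 183 (ranks 344 and 450). In A549 replicate 2 the score was only 53.55, at rank 1637 of 1768, close to the end of the list, whereas replicate 3 had 141 at rank 415 of 1270. The A549 replicates thus differed by 59.9 percentage points of rank at this promoter, the widest gap between replicates among the sites of the 5 genes.

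The region 3646 bp upstream of the SLC2A1 start (chr1:43427210-43429161), within the divergent lncRNA gene SLC2A1-DT, also had a peak in all 8 libraries. Its scores were 122 and 333 in PC3 cells, 219 and 273 in T47D cells, 362 and 233 in A549 cells, and 468 and 176 in HCT-116 cells, with ranks from 192 to 470. In A549 cells it stood above the promoter itself in both replicates, at ranks 192 and 222 against 1637 and 415. A region in intron 2 (chr1:43406004-43408104), 17485 bp downstream of the start, was a site in PC3 cells (scores 174 and 569), A549 cells (349 and 216) and HCT-116 cells (158 and 121). Its midpoint was 1855 bp from the start of another coding transcript of SLC2A1, within the 2 kb used for promoters. Neither T47D library had a peak there, in lists of 3061 and 2910 peaks. That absence was not tested.

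The far upstream region of SLC2A1 (chr1:43472619-43475269), 49405 bp from the start and thus only just inside the window, had by score the strongest SLC2A1 peaks of any library. HCT-116 replicate 2 had a score of 2900 there (rank 15 of 3790) and replicate 3 a score of 1439 (rank 24 of 1913), with peaks that shared 95.9% of their joint width. None of the 6 libraries of the other lines had a peak. Of the 94 HCT-116 sites in the top 5% of both lists, 2 (2.13%) lacked a peak in every library of the other lines, this region being 1 of them, whereas 394 of all 1756 HCT-116 sites (22.4%) did. The region overlapped no protein-coding gene body, and SLC2A1 had the nearest protein-coding start. A pair of single peaks 8420 bp upstream, in PC3 replicate 2 (score 50.76) and HCT-116 replicate 2 (57.7), and 1 peak each in PC3 replicate 2 and T47D replicate 1 within intron 2, were not sites.

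HK1 had a promoter site in 3 of the 4 lines. The region (chr10:71077133-71079947) covered the main start, from which its midpoint was 63 bp upstream. Its scores were 399 and 843 in PC3 cells (ranks 77 and 82), 212 and 518 in T47D cells (ranks 424 and 153), and 564 and 427 in HCT-116 cells (ranks 224 and 147). These 6 peaks stood between 2.84% and 13.9% from the top of their lists. A549 cells had no peak in the HK1 window in either replicate, and their nearest peak to the main start was 188923 bp away in replicate 2 and 188797 bp in replicate 3. The A549 lists held 1768 and 1270 peaks. The difference in presence was not tested, and the depth of these libraries is unknown. In PC3 cells the replicate peaks had unequal widths, 1246 and 2494 bp, and with a required overlap of 50% of both peaks the HK1 site of that line was lost. T47D cells alone had a site in intron 12 (chr10:71144599-71146001), of lower rank, with scores of 119 and 95.22 (ranks 926 and 1335.5). The protein-coding start nearest to that site was that of TACR2, a tachykinin receptor gene, 23738 bp away.

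HK2 had a peak over its start in all 8 libraries (chr2:75060207-75062568). The region also covered the start of the lncRNA gene HK2-DT on the opposite strand. The scores were 611 and 972 in PC3 cells (ranks 46 and 66), 931.3 and 930.5 in T47D cells (ranks 57 and 73), and 1622 and 1077 in HCT-116 cells (ranks 58 and 49). In A549 cells they were 94.25 and 149, at ranks 875 of 1768 and 386 of 1270. Both A549 peaks thus lay between 30.4% and 49.5% from the top of their lists, and the 6 others between 1.53% and 4.41%. How often other regions were separated by line in this way was not counted. The A549 peaks were also the narrowest, 1230 and 919 bp against 1514 to 2362 bp. A region 83826 bp downstream of the start (chr2:75144409-75145751) was a site in PC3 cells only, with scores of 93.75 and 102, and was also lost with an overlap of 50% of both peaks. It overlapped no protein-coding gene body, and the nearest protein-coding start was that of POLE4, a DNA polymerase epsilon subunit gene, 40690 bp away. The region did cover the start of a lncRNA gene, LINC01291.

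**Figure D2:**
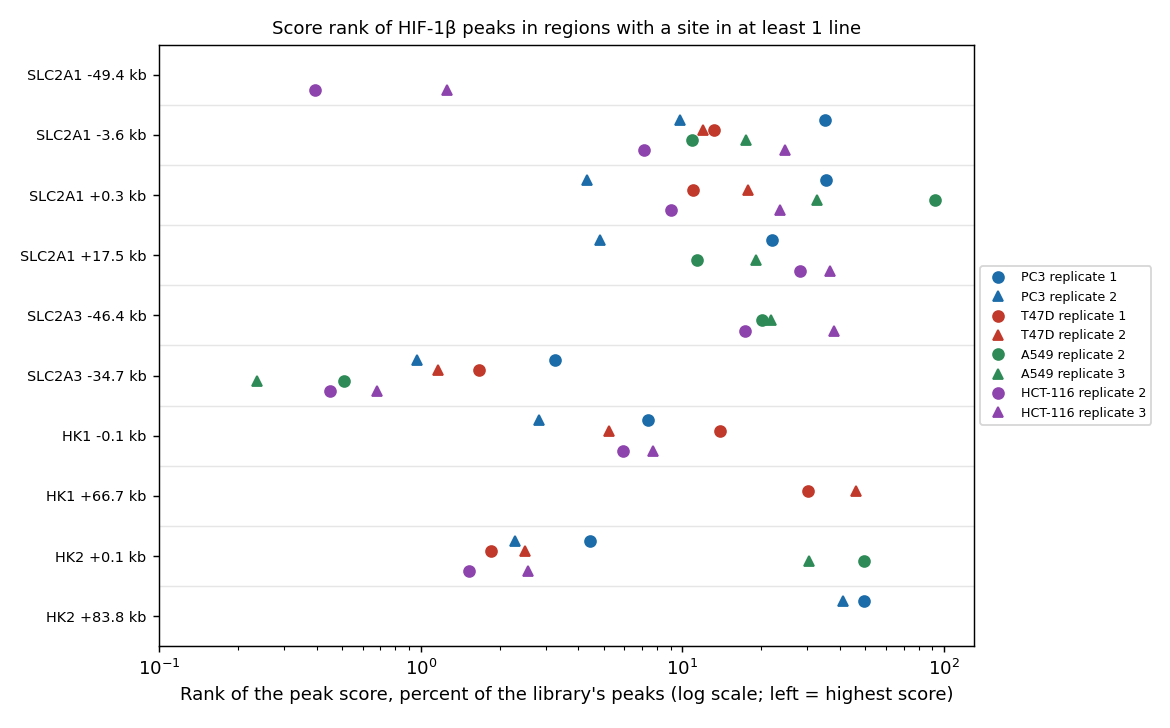
Rank of the peak score as a percent of the library's peaks (log axis, highest scores on the left) for each of the 10 regions with a site, named by gene and distance of the midpoint from the main start in kb. Each point is 1 library, with colour for the line and shape for the replicate. The 8 points of the SLC2A3 region at -34.7 kb lie between 0.236% and 3.26%, and the A549 points of the HK2 promoter lie at 30.4% and 49.5%.

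A site in the top 5% of both lists was present near SLC2A3 and HK2 in PC3 cells (0.621% of all genes had one) and in T47D cells (1.54%). In A549 cells only SLC2A3 had one (0.6%), and in HCT-116 cells SLC2A1, SLC2A3 and HK2 did (1.11%). The positions and ranks of replicate peaks were set beside those of all sites of the same line. The median share of joint width covered by both peaks was 75.5% at the sites of these genes in PC3 cells against 74.9% at all sites, 80.8% against 83.6% in T47D cells, 86.8% against 78.7% in A549 cells, and 77.7% against 83.1% in HCT-116 cells. The median difference in rank between replicates was 8.17 percentage points at the sites of these genes in PC3 cells (all sites 21.4), 4.10 for T47D (all sites 9.83), 7.19 for A549 (11.2) and 5.16 for HCT-116 (15.7). Sites near the top of both lists, as several of these were, can differ little in rank percent. No comparison with sites of matched rank was made, so the smaller differences are not read as better agreement. The median distance between the midpoints of replicate peaks was 86 bp at the sites of these genes for PC3 (all sites 83), 109 for T47D (82), 48 for A549 (70) and 157.5 for HCT-116 (76). These medians rest on 6 to 8 sites per line.

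Whether score rank differed between lines was tested in regions with a peak in all 8 libraries, of which there were 233 in the genome (2.79% of 8362 regions). Ranks of these regions within each library were turned into normal scores, in SD units with 0 for the middle region, and compared over the 4 lines with limma's F test and Benjamini-Hochberg adjustment over the 233 regions. The test called 117 regions (50.2%), so a difference between lines was common. Of the 4 regions near these genes, 3 were called, namely the HK2 promoter (limma adjusted p = 0.0086), the SLC2A3 region 34680 bp upstream (0.00898) and the SLC2A1 region 3646 bp upstream (0.0154). The SLC2A1 promoter was not (0.301), and its intervals were wide, for example -0.07 to 2.56 for PC3 minus A549. The replicates of A549 lay far apart there, with normal scores of -2.17 in replicate 2 and -0.18 in replicate 3.

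At the HK2 promoter the mean normal score was -0.50 in A549 cells against 0.91 in PC3 cells, 0.83 in T47D cells and 0.86 in HCT-116 cells. A549 was lower than PC3 by 1.41 (SE 0.26, limma adjusted p = 0.0104, 31.3% of regions called in this contrast). It was also lower than T47D by 1.33 (limma adjusted p = 0.00951, 32.6%) and lower than HCT-116 (difference -1.36, limma adjusted p = 0.00819, 25.3%). PC3, T47D and HCT-116 did not differ past the threshold, with 95% intervals of -0.52 to 0.69 for PC3 minus T47D (24.9% of regions called), -0.55 to 0.65 for PC3 minus HCT-116 (13.3%) and -0.64 to 0.57 for T47D minus HCT-116 (20.2%). The HK2 call held with ranks among all peaks of a library (limma adjusted p = 0.012) and without any single library (0.0038 to 0.0348).

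At the SLC2A3 region 34680 bp upstream the order was the other way, with A549 highest. Its mean normal score was 2.14 in A549 cells, 1.56 in HCT-116 cells, 1.24 in PC3 cells and 1.01 in T47D cells. PC3 minus A549 was -0.90 (SE 0.19, limma adjusted p = 0.0144) and T47D minus A549 was -1.13 (0.00483). A549 minus HCT-116 was 0.59 (95% interval 0.14 to 1.03, limma adjusted p = 0.0576), and HCT-116, PC3 and T47D did not differ past the threshold. Of these, T47D minus HCT-116 came closest, at -0.54 (95% interval -0.99 to -0.096, limma adjusted p = 0.079). With ranks among all peaks of a library in place of the 233 regions, the call for this region was lost (limma adjusted p = 0.268). At the SLC2A1 region 3646 bp upstream, A549 (0.42) was higher than HCT-116 (-0.66) by 1.08 (SE 0.22, limma adjusted p = 0.00923) and higher than T47D (-0.50), with T47D minus A549 at -0.92 (0.0187), and PC3 (-0.21) did not differ from A549 past the threshold (0.0595). That call was lost with ranks among all peaks (limma adjusted p = 0.87), without A549 replicate 2 (0.0698) and without T47D replicate 1 (0.0509).

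**Figure D3:**
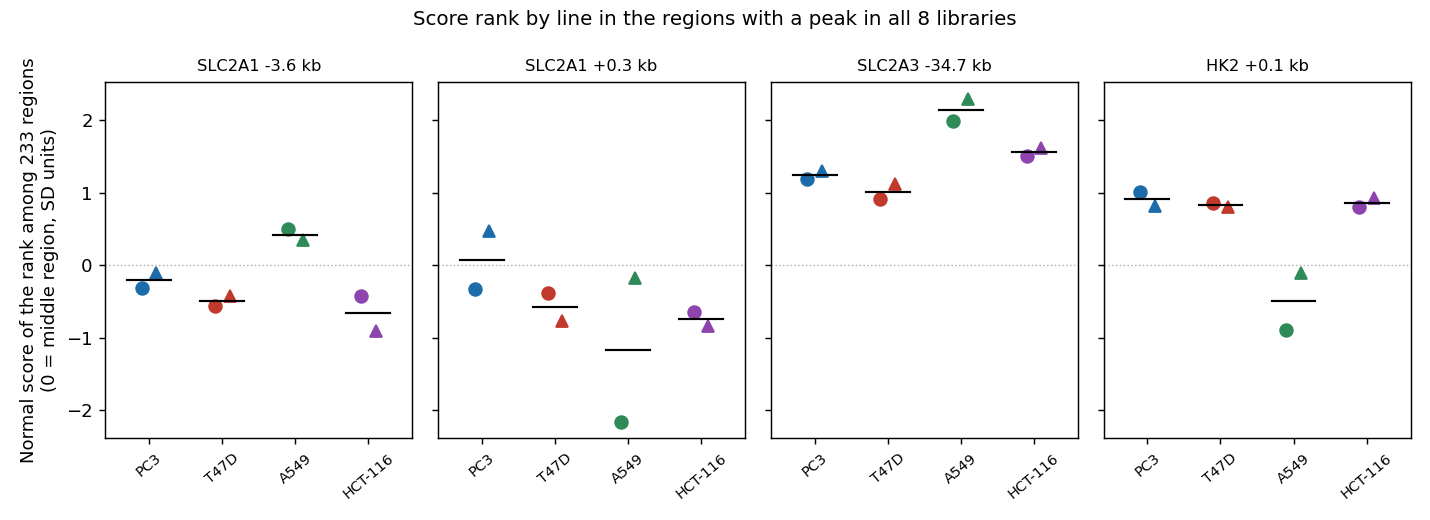
Normal score of the peak's rank among the 233 regions with a peak in all 8 libraries (0 is the middle region, in SD units) at the 4 such regions near these genes, by line. Points are replicates (circle for the lower replicate number, triangle for the higher) and bars are line means. At the HK2 promoter (+0.1 kb) A549 has a mean of -0.50 and the other lines 0.83 to 0.91, and at the SLC2A3 region (-34.7 kb) A549 has the highest mean, 2.14.

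All 10 regions with a site contained a core motif. ACGTG and GCGTG were counted on both strands, so that a palindromic CACGTG counted as 2. The HK2 promoter region held 19, or 8.04 per kb, and the SLC2A3 region 34680 bp upstream held 11, or 6.21 per kb, against a median of 3.70 per kb over the 233 regions, every one of which had at least 1. The HK1 promoter region had 3.55 per kb, the SLC2A1 promoter region 3.48 and the SLC2A1 far upstream region 3.39. The SLC2A1 region 3646 bp upstream had the lowest density, 1.54 per kb, and 1 motif in its central 300 bp. In the printed 300 bp, HK1 and HK2 had 4 motifs, SLC2A3 and the SLC2A1 promoter had 3 and the far upstream site had 2. Of the 233 regions, 96.6% had a motif in their central 300 bp, 45.5% had 3 or more and 27.5% had 4 or more. A pair of ACGTG motifs 4 bases apart (on either strand, with any bases between, searched after the sequences had been seen) occurred in 2 of the 10 regions. In the HK1 promoter it read ACGTGggggACGTG at chr10:71078330-71078343, 267 bp upstream of the main start. In the SLC2A3 region 46381 bp upstream it read ACGTGgaggACGTG at chr12:8135159-8135172, and the SLC2A14 copy held the same letters at chr12:8004492-8004505. The spaced pair was present in 4.72% of the 233 regions and in 1.31% to 2.06% of the sites of each line. A match of letters is a description of the sequence and not a measure of binding.

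**Figure D4:**
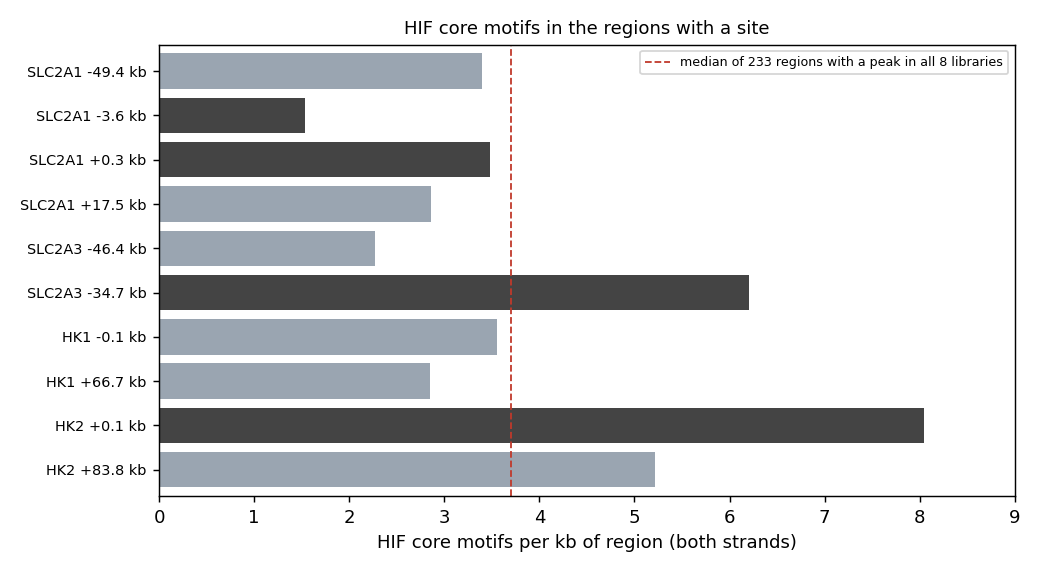
Core motifs (ACGTG and GCGTG, both strands) per kb in the 10 regions with a site, named by gene and distance of the midpoint from the main start in kb. Dark bars are regions with a peak in all 8 libraries, and the dashed line is the median of the 233 such regions, 3.70 per kb. The HK2 promoter (8.04), the SLC2A3 region at -34.7 kb (6.21) and the HK2 downstream region (5.21) lie above it, and the other 7 regions lie below.

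Among 23 other genes of glucose entry and phosphorylation, which include further transporters, the sodium-coupled SLC5A1 and SLC5A2, HK3, HKDC1, the glucose-6-phosphatases and TXNIP, an inhibitor of glucose uptake, sites were counted with the same 50 kb window. The PC3 count was 1 gene (4.35%, against 10.1% of all protein-coding genes) and the A549 count was also 1 (4.35% against 8.63%). The T47D count was 4 (17.4% against 21.9%) and the HCT-116 count was 6 (26.1% against 19.6%). SLC2A11 was the 1 gene with a site in all 4 lines, and that site lay 107 to 418 bp from the start of MIF, a cytokine gene, and 36615 to 36926 bp from the start of SLC2A11. The site counted for HKDC1 in HCT-116 cells was the HK1 promoter site itself. Within 2 kb of a start, only ADPGK, an enzyme that phosphorylates glucose with ADP, had a site, in T47D cells (scores 104 and 108) and HCT-116 cells (152 and 106). SLC2A4, SLC5A2 and G6PC3 also had sites in their windows in HCT-116 cells, and SLC5A2 and TXNIP in T47D cells, each with the start of another gene nearest to it.

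The regions most like those of the 5 genes were taken as those with the smallest root mean square difference in rank, in percent of the list, over the 8 libraries. For the SLC2A3 region 34680 bp upstream these were regions at GAPDH, a glycolytic enzyme (0.572), FAM174B (0.654) and BHLHE40, a transcriptional repressor (0.664). For the HK2 promoter they were regions with the nearest start at GTF2IRD2B (3.86), CCNG2 (6.55) and MYL4 (7.21), the last 10040 bp from that start. All 3 had lower ranks in both A549 libraries than in the other 6, with 42.8% and 33.1% from the top at GTF2IRD2B. The way they were picked favours this, because likeness was measured over the same 8 libraries, so it is no separate result. For the SLC2A1 promoter they were those nearest to the starts of TMEM123 (11.97, at 24142 bp), SCD (12.1) and ERO1A (12.1), and for the SLC2A1 region 3646 bp upstream those nearest to ENOSF1 (6.08), PITRM1 (6.98) and NTMT1 (7.16), the latter 2 over 100 kb from those genes' starts. Likeness in rank was described over 8 libraries and carries no test.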

How the data were processed

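HIF-1β ChIP-seq peak lists of 8 libraries, 2 of each of 4 cancer cell lines, were analysed. The authors trimmed reads, aligned them to GRCh37 (hg19) and called peaks with MACS in each library. The submitters' processing notes name Trim Galore 0.3.3, BWA 0.7.5a-r405, SAMtools 0.1.19, bedtools 2.17.0, Picard 1.106 and MACS. The study's methods also name T-PIC as another caller required to find the same peaks, and the lists do not show whether it was applied to them. For every peak the deposited lists hold an interval, a name and a score without a header, whose lowest value lies between 50 and 50.09. Its scale is not given in the sources used here, and scores of several libraries end at 3100, so only ranks within a library were compared. A library's number of peaks limits how far its list reaches, and the depth is unknown.

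Groups were taken from the labelled cell line. Intervals were converted to 1-based positions. Gene bodies and starts came from GENCODE 44 lifted to GRCh37, and the main start is that of the representative transcript. Windows of 50 kb, promoters of 2 kb on each side of a start and a minimum overlap of 1 bp were used. Peaks outside the main chromosomes, between 0 and 4 per library, were left out of sites and background counts. limma 3.58.1 in R 4.3.3 was fitted to all 233 regions with a peak in all 8 libraries, with line as the only term, on normal scores of the rank (residual degrees of freedom 4) and a threshold of 0.05. This model is not the study's own. It was chosen because the values are scores. The site counting and the limma fit were tested on simulated data. Copies on chromosome 12 were found with blastn 2.17.0, keeping alignments of at least 500 bp with at least 85% identity. Other tools were Python 3.11.15, NumPy 2.4.6, SciPy 1.17.1, pysam 0.24.0, Matplotlib 3.10.9, bedtools 2.31.1 and samtools 1.23.1.

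The genes named are the 5 members, protein-coding genes that overlap or have the nearest start to a site in their windows, 23 other genes of glucose entry and phosphorylation, and, for each region with a peak in all 8 libraries, the 3 regions most like it. FOXJ2, the genes nearest to sites of the 23 other genes, and the lncRNA genes are named outside this rule. The members and lists were chosen with earlier results of these data known. Alternatives were other windows, promoters, overlaps between replicates, rank scales and motif definitions, a peak of either replicate, the top 50% of each list by score, a replicate block and each replicate left out. Promoter tables on another genome build were not used, and expression was not analysed here.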

Additional observations from a re-analysis of the deposited data

How the results depend on the processing

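The number of genes with a site differed from that reported by at most 1 in every line, under windows of 25 or 100 kb, the gene body alone, the main transcript with 50 kb (chosen after seeing the data), an overlap of 50% of both peaks, a peak of either replicate and the higher-scoring 50% of each list. Leaving out a replicate gave 4 genes in PC3 cells, 4 in T47D cells, 3 to 4 in A549 cells and 4 to 5 in HCT-116 cells, and 7 to 9, 6 to 8, 7 and 8 to 12 sites in the same order. With 1 library of a line left, each of its peaks was counted as a site. These counts, like those for a peak of either replicate, could therefore in effect only stay or rise, and they do not measure stability. With a promoter of 500 bp no count of genes with a promoter site changed past 1.5 times. With ranks among all peaks of a library, 77 of the 233 regions differed between lines in place of 117, and the SLC2A3 region 34680 bp upstream (limma adjusted p = 0.268) and the SLC2A1 region 3646 bp upstream (0.87) were no longer called. Leaving out a library gave 67 to 120 called regions, the lowest without T47D replicate 1, and adjusted p-values of 0.0038 to 0.0348 for the HK2 promoter, 0.0134 to 0.0445 for the SLC2A3 region, 0.022 to 0.0698 for the SLC2A1 upstream region and 0.0155 to 0.699 for the SLC2A1 promoter. In fits without 1 replicate, the remaining library of that line is assumed to vary like the other lines. The causes of these changes were not tested. The pair of ACGTG motifs 4 bases apart, chosen after seeing the sequences, was present in 2 of the 10 regions in place of 10 with a core motif.

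Replicate numbers are shared by some lines, and the correlations of the deviations of same-numbered libraries lay between -0.03 and 0.07 over 8 pairs, 0 of them above 0.1. The deviations of the 2 replicates of a line mirror each other, so the 8 values are not all separate. PC3 with T47D gave 0.012 for both shared numbers, and A549 with HCT-116 gave 0.074 for both. The numbers were not taken to pair the libraries. With the replicate number as a block, 79 regions were called, the SLC2A3 region had a limma adjusted p of 0.0746, and the block changed no other call among the 4 regions. The unknown depth, the ceiling near which scores end in several lists and 2 replicates per line limit these comparisons, and a missing peak says only that none was called at the depth of that library.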
